A study of Mus musculus with 6 samples.

Results

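The pyruvate dehydrogenase complex and the kinases that switch it off were examined in abdominal white adipose tissue (WAT) of mice carrying human NAG-1. The genes were chosen by name: *Pdha1*, *Pdhb*, *Dlat* and *Pdhx*, which encode parts of the complex, and the kinase genes *Pdk1*, *Pdk2*, *Pdk3* and *Pdk4*. These 8 genes are among 21059 genes measured, and they have 14 of the 31456 probes kept. All 14 probes were well above background on all 6 arrays, none was saturated, and none was lost to the filter on dim probes.

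The tested mice were female hNAG-1 transgenics of strain C57/BL6 at 30 wk of age, and the controls were WT females of the same strain and age. RNA came from about 150 mg of abdominal fat per sample, and each array held a pool from 2 mice, so that 6 mice of each genotype gave 3 arrays. NAG-1, also called GDF15, is a secreted protein of the TGF-beta superfamily. By the study's methods the mice are of a single transgenic line and the transgene is expressed in most tissues, WAT included; its promoter is not given in the sources used here. The transgene is human, so the mouse probes do not check the genotype labels. The comparison addresses how fat tissue differs in its metabolic genes between mice that make the human protein and mice that do not.

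Pyruvate dehydrogenase sits in the mitochondrial matrix and turns pyruvate, the end product of glycolysis, into acetyl-CoA. Its E1 part (alpha and beta chains, from *Pdha1* and *Pdhb*) removes carbon dioxide, its E2 part (*Dlat*) passes the acetyl group to coenzyme A, its E3 part (*Dld*) restores the lipoyl groups, and the E3 binding protein (*Pdhx*) anchors E3 to the E2 core. The PDH kinases phosphorylate the E1 alpha chain and stop the enzyme, and PDH phosphatases reverse this. In fat cells the acetyl-CoA feeds the citric acid cycle and, by way of citrate, the synthesis of fatty acids. RNA levels do not report the phosphorylation of the enzyme.

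Each value is a scaled signal, that is, the probe's processed signal divided by the 75th percentile of its array. Levels of different probes are not comparable, so each is compared only between genotypes. The 75th percentile was 657.3 to 896 units on hNAG-1 arrays, against 957.6 to 1028.5 on WT arrays, and 71.2% to 82% of spots were well above background. The arrays lay on 2 slides: hNAG-1 replicate 1 shared slide 1 with all 3 WT arrays, and hNAG-1 replicates 2 and 3 were on slide 2. Of the 21059 genes, 0 passed an adjusted p of 0.05 by limma with Benjamini-Hochberg adjustment, and 2035 were higher and 766 lower at an unadjusted p under 0.05. Adipocyte markers were abundant: all 10 had a probe above background on every array, and their summed scaled signal was 2110 to 2480 in hNAG-1 WAT, against 1670 to 2010 in WT WAT. Of 8 macrophage markers 7 were negative, as were 8136 of the 21059 genes. At an unadjusted p under 0.05, 3 of the 8 were lower, beside 3.64% of all genes. Their summed signals overlapped, at 123 to 129 in hNAG-1 WAT, against 115 to 148 in WT WAT. Of 7 fibroblast markers 6 were negative, 1 of them at an unadjusted p under 0.05 (416 to 490 in hNAG-1 WAT, against 458 to 530 in WT WAT). All 8 lymphocyte markers were positive (2.13 to 4.1 in hNAG-1 WAT, against 1.48 to 2.56 in WT WAT), but 0 had an unadjusted p under 0.05. The sum of 4.1 was on hNAG-1 replicate 2, and the other hNAG-1 arrays had 2.13 and 2.22. With normexp background correction *Cd3e*, *Cd3g*, *Cd4*, *Cd8a* and *Cd79a* turned negative, and the other lymphocyte markers stayed positive. All markers of these 3 lists were above background on every array, and their part in the results was not tested. Other lists varied among pools of the same genotype. Brown adipocyte markers summed to 60.2 to 93.1 in hNAG-1 WAT, against 34.4 to 150 in WT WAT. Skeletal muscle markers summed to 46.2 to 282 in hNAG-1 WAT, against 38.7 to 171 in WT WAT. Pancreas markers summed to 13 on WT replicate 2 and to at most 1.67 on any other array. The part of these lists was not tested either. In bulk tissue, fewer cells of a type and less RNA per cell cannot be told apart.

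All 4 genes of the complex and *Pdk1* were higher in hNAG-1 WAT, by 1.65-fold to 2.53-fold. *Pdk3* was slightly lower, and *Pdk2* and *Pdk4* overlapped between genotypes. At an unadjusted p under 0.05, 5 of the 8 genes were higher, where 9.66% of all genes were, and 1 of the 8 was lower, where 3.64% of all genes were. On 5 of the 8 genes every hNAG-1 array lay above every WT array, which was so for 15.0% of all genes, and on 1 every hNAG-1 array lay below, which was so for 5.94%. None passed an adjusted p of 0.05, the lowest being 0.167 for *Pdk1*, which ranked 76th of all genes by p. The median log2 fold change (hNAG-1 over WT) was 0.74 over the 8 genes and 0.08 over all genes, and 6 of the 8 were positive, as were 61.4% of all genes.

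**Figure D1:**
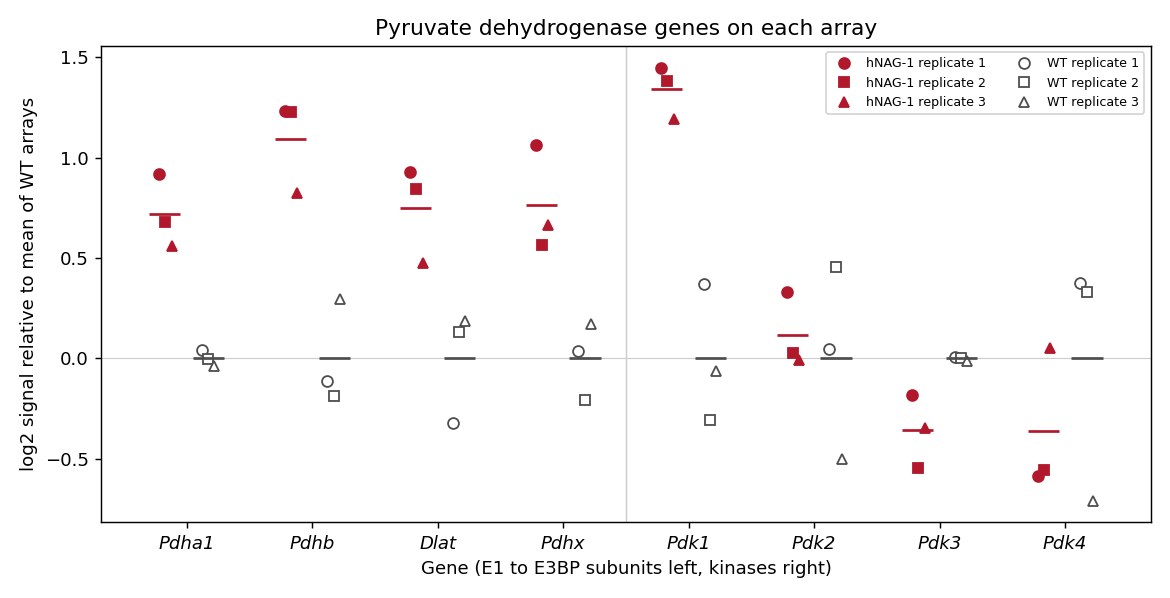
Each point is the log2 signal of a gene's brightest probe on 1 array, less the WT mean (vertical axis); filled red symbols are hNAG-1 replicates, open grey symbols WT replicates, and short lines the group means (n = 3 each). The hNAG-1 points lie above all WT points for Pdha1, Pdhb, Dlat, Pdhx and Pdk1 and below them for Pdk3, with small gaps for Dlat and Pdk3. They mix with the WT points for Pdk2 and Pdk4.

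The E1 beta gene *Pdhb* differed most within the complex. Its scaled signal was 70.6, 70.3 and 53.2 on the hNAG-1 arrays, against 27.8, 26.4 and 36.9 on the WT arrays. The lowest hNAG-1 array was well above the highest WT array. The log2 fold change was 1.09 (SE 0.19), or 2.14-fold with a 95% interval of 1.54 to 2.97 (adjusted p = 0.179 by limma). This brightest probe maps to chr14:5976962-5977021 in the array design (mouse build mm7, minus strand). A second probe, with a log2 fold change of 1.11, covers 291 bases of genome with its 60 bases, at chr14:5977124-5977414, so it reads across an exon junction. It has a frame with no stop codon. It is shown because it detects spliced message, and reads 5′ to 3′:

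Pdhb junction probe: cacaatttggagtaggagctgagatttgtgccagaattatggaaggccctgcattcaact

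*Pdha1*, which encodes the E1 alpha chain that the kinases phosphorylate, had the tightest WT values within the complex. The scaled signal was 19.7, 16.6 and 15.3 in hNAG-1 WAT, against 10.7, 10.4 and 10.1 in WT WAT. The WT arrays were almost equal and all hNAG-1 arrays lay above them. On the log2 scale the difference was 0.72 (SE 0.13), or 1.65-fold with a 95% interval of 1.32 to 2.06 (adjusted p = 0.179). Its brightest probe lies at chrX:154897095-154897154, and the second probe gave 0.85.

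*Dlat*, the E2 gene, read 15.3, 14.5 and 11.2 in hNAG-1 WAT, against 6.45, 8.84 and 9.19 in WT WAT. The groups did not overlap, but the gap between hNAG-1 replicate 3 and WT replicate 3 was small. This made 0.75 on the log2 scale (SE 0.20), or 1.68-fold with a 95% interval of 1.19 to 2.37 (adjusted p = 0.255). The second probe gave 0.89. The brightest probe covers 961 bases of the design's genome, chr9:50615095-50616055, and so also reads across at least 1 intron, with a frame free of stops:

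Dlat junction probe: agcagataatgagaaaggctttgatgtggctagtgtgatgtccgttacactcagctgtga

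*Pdhx*, for the E3 binding protein, read 7.72, 5.46 and 5.85 in hNAG-1 WAT, against 3.78, 3.2 and 4.16 in WT WAT. All hNAG-1 arrays were above all WT arrays, and hNAG-1 replicate 1 was the highest. The difference was 0.76 on the log2 scale (SE 0.18), or 1.7-fold with a 95% interval of 1.24 to 2.32 (adjusted p = 0.231). The probe lies at chr2:102872637-102872696. A dimmer second probe gave 0.93. Thus all 8 probes of the complex had their hNAG-1 arrays above their WT arrays in scaled signal. Probes of the same gene are not independent. By the brightest probe, 15.0% of all genes were separated in this direction. Before scaling, the brightest probe of each complex gene overlapped between genotypes. The lowest hNAG-1 signal, on hNAG-1 replicate 3, was 10062.6 for *Pdha1*, 34972.8 for *Pdhb*, 7374.4 for *Dlat* and 3844.8 for *Pdhx*. The highest WT signals were 10987.2, 36434.1, 9075.6 and 4110.3 in the same order. The unscaled second probes of *Pdha1*, *Pdhb* and *Pdhx* did not overlap, and that of *Dlat* did.

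**Figure D2:**
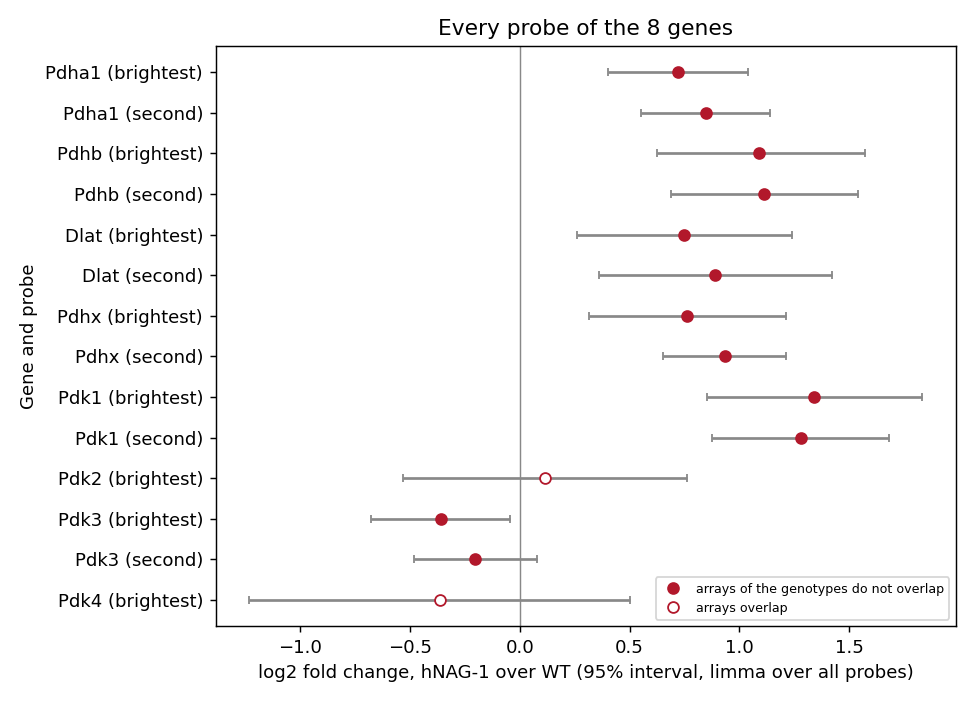
Each row is 1 of the 14 probes, the brightest probe of a gene first; the point is the log2 fold change (hNAG-1 over WT) and the bar its 95% interval from limma over all probes, filled where the arrays of the genotypes do not overlap. Both probes agree in direction for each of the 6 genes that have a pair, and the Pdk4 bar, -1.23 to 0.50, is the widest.

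Among the kinase genes, *Pdk1* had the largest log2 fold change. PDK1 is the isoform able to phosphorylate all of the regulatory sites of E1 alpha and is a known target of HIF-1. Its scaled signal was 8.58, 8.19 and 7.18 in hNAG-1 WAT, against 4.06, 2.54 and 3.01 in WT WAT. The hNAG-1 arrays were close together and every one was above the highest WT array. Its log2 fold change was 1.34 (SE 0.20), or 2.53-fold with a 95% interval of 1.80 to 3.57 (adjusted p = 0.167). The brightest probe, at chr2:71747473-71747532, belongs to a different transcript record than the second probe, at chr2:71745341-71745400, which gave 1.28.

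*Pdk4* encodes the kinase that fasting, glucocorticoids and PPAR activity are known to induce. It read 6.62, 6.76 and 10.3 in hNAG-1 WAT, against 12.9, 12.5 and 6.08 in WT WAT. WT replicates 1 and 2 were the highest and WT replicate 3 the lowest of all 6 arrays. The log2 fold change of -0.36 (SE 0.35) had a 95% interval of -1.24 to 0.51 (adjusted p = 0.685). Without WT replicate 3 it was -0.72, past an unadjusted p of 0.05 (adjusted p = 0.269). Its only probe lies at chr6:5436327-5436386. The 5 smooth muscle markers were high on the same WT arrays: their summed signal was 66.8, 54.8 and 85.9 on hNAG-1 replicates 1, 2 and 3, against 302, 376 and 55.2 on WT replicates 1, 2 and 3. All 5 were above background on every array. Their part in the *Pdk4* values was not tested.

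*Pdk3*, a kinase gene known mainly from testis, kidney and brain, was dim. It read 0.375, 0.291 and 0.335 in hNAG-1 WAT, against 0.428, 0.427 and 0.422 in WT WAT. The WT arrays were nearly identical, and every hNAG-1 array was below them. The difference was -0.36 on the log2 scale (SE 0.13), or 0.78-fold with a 95% interval of 0.63 to 0.97 (adjusted p = 0.343). The second probe also had hNAG-1 below WT, at -0.20 with a 95% interval of -0.48 to 0.08. The brightest probe lies at chrX:89151540-89151599. Within the slide that holds both genotypes the log2 fold change was -0.18.

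*Pdk2*, the isoform that is widely expressed and sensitive to the products of the reaction, read 0.691, 0.56 and 0.546 in hNAG-1 WAT, against 0.568, 0.754 and 0.389 in WT WAT. WT replicates held both the highest and the lowest value. Its log2 fold change of 0.12 (SE 0.26) had a 95% interval of -0.54 to 0.77 (adjusted p = 0.867). The single probe is at chr11:95135705-95135764. The direction of *Pdk2* turned to -0.14 without WT replicate 3.

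The balance among the kinases was compared within each array, which cancels the scaling. Of 6 pairs of kinase genes, the 3 led by *Pdk1* had a higher ratio on every hNAG-1 array than on any WT array. With the WT mean set at 0, the log2 ratio of *Pdk1* over *Pdk4* was 2.03, 1.94 and 1.14 on hNAG-1 arrays, against -0.01, -0.64 and 0.64 on WT arrays. The groups did not overlap. The difference in mean log2 ratio was 1.7 for *Pdk1* over *Pdk4*, 1.7 for *Pdk1* over *Pdk3* and 1.22 for *Pdk1* over *Pdk2*. Each of these had a two-sided exact permutation p of 0.1, the smallest that 3 against 3 arrays can give, and 0.2 after Benjamini-Hochberg adjustment over the 6 pairs. The other 3 pairs overlapped, with exact permutation p of 0.2 to 1. The 6 pairs are built from 4 genes and are not independent.

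**Figure D3:**
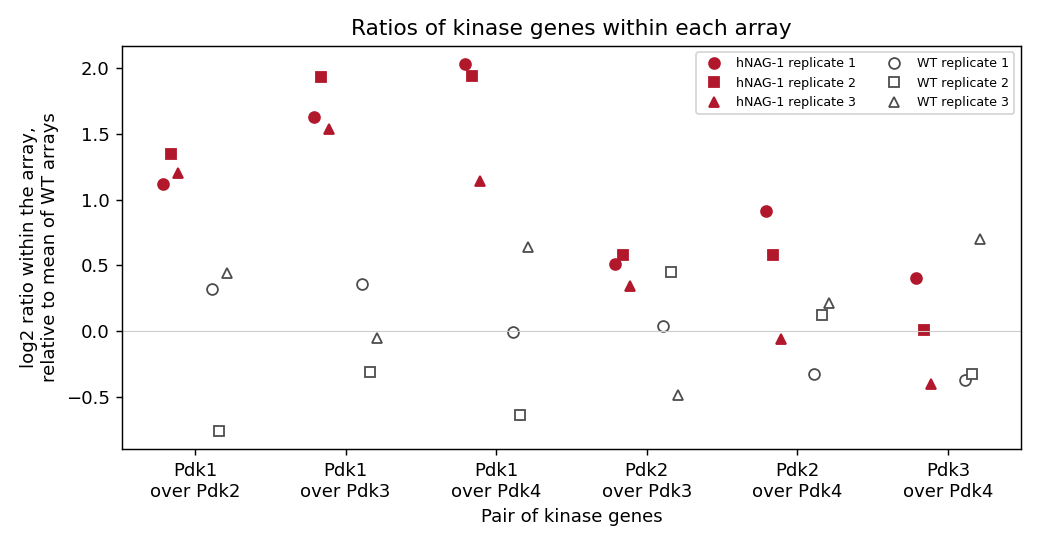
For each pair of kinase genes (horizontal axis) the points give the log2 ratio on each array, less the WT mean (vertical axis); filled red symbols are hNAG-1 replicates and open grey symbols WT replicates. The 3 pairs led by Pdk1 are separated, with hNAG-1 values from 1.12 to 2.03 and WT values from -0.76 to 0.64, and the other 3 pairs overlap.

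Across the 6 arrays the 4 genes of the complex followed each other, with Pearson r of 0.83 to 0.94 between their log2 signals, and *Pdk1* followed them with r of 0.77 to 0.95. *Pdk3* ran at r of -0.61 to -0.82 with the complex, *Pdk4* at -0.45 to -0.69 and *Pdk2* at 0.00 to 0.31. These values describe 6 arrays that share the same genotype difference and are not tests. By the same measure, genes most like *Pdhb* among 16373 included *Tinag* (r = 0.998), *Ndufa9* (0.996), *Insig1* (0.995) and *Ivd* (0.995). NDUFA9 is a subunit of respiratory complex I, INSIG1 restrains sterol synthesis and IVD acts in leucine breakdown. The genes most like *Pdk4* were *Tnfaip8l3* (0.995), *Jund* (0.993), *Ptpn5* (0.992), *Ccdc103* (0.988) and *Nolc1* (0.988).

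The promoters of all 8 genes were found in RefSeq (GRCm38.p6), as windows of 300 bases that run from 250 bases before the gene's start to 50 after it, the outermost start being used where several are listed. Motifs were searched on both strands. GGGCGG, the core of a GC box, occurred in 5 of the 8 windows (*Pdhb*, *Dlat*, *Pdhx*, *Pdk1* and *Pdk3*) and in 35.7% of 32851 mouse promoters. CCAAT occurred in 5 of the 8 (*Pdhb*, *Pdhx*, *Pdk2*, *Pdk3* and *Pdk4*) and in 37.4% of all promoters. ACGTG, the core of a hypoxia response element, occurred in 3 of the 8 (*Pdhb*, *Pdk2* and *Pdk3*) and in 19.6% of all promoters; in *Pdk2* the matches on the opposite strands overlap. AAGGTCA, the core of the motif of estrogen-related receptors, occurred in 0 of the 8 and in 4.72% of all promoters. The windows of *Pdk1* and *Pdhb*, the kinase and complex genes with the largest differences, and of *Pdk4*, the kinase gene with a negative value and the widest interval, are shown for comparison, with GGGCGG and CCAAT on either strand in capitals. They lie at chr2:71872974-71873273 (plus strand), chr14:8172943-8173242 (minus strand) and chr6:5496229-5496528 (minus strand) and are written 5′ to 3′ along the gene:

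Pdk1: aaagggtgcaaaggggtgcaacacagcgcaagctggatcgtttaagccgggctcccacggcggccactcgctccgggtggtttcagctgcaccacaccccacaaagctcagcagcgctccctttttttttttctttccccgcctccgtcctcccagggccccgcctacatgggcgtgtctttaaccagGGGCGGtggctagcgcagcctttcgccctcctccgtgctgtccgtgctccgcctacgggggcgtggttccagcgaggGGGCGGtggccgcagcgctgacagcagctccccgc

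Pdhb: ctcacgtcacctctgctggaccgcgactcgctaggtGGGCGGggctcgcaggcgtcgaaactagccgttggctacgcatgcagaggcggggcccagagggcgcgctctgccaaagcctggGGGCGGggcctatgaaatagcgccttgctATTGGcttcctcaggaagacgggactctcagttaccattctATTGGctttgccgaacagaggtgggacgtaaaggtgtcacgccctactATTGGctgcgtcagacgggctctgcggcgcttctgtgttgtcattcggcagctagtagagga

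Pdk4: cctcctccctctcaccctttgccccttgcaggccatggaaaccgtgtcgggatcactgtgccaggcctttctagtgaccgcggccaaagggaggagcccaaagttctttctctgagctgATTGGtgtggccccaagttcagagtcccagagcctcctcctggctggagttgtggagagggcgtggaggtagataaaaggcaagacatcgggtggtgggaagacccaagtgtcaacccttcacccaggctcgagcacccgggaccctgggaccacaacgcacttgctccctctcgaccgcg

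The *Pdk1* window held GGGCGG at 2 places and no CCAAT, the *Pdhb* window GGGCGG at 2 places and CCAAT at 3, and the *Pdk4* window CCAAT at 1 place and no GGGCGG. A match is a string of letters and not a bound site.

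The partners of the complex lay nearer to 0 than its E1, E2 and E3BP genes. All 6 measured of 7 listed partners had positive log2 fold changes, from 0.01 to 0.31 with a median of 0.29, and 1 was higher at an unadjusted p under 0.05, beside 9.66% of all genes. This was *Lias*, lipoic acid synthetase, at 0.28 (adjusted p = 0.361). *Dld*, the E3 gene that the complex shares with related enzymes, read 18, 12.7 and 16.4 in hNAG-1 WAT, against 12, 12 and 13.8 in WT WAT, so the groups overlapped. The value was 0.31 (SE 0.17) on the brightest of 3 probes, while the dimmer probes gave 0.67 (SE 0.11) and 0.38 (SE 0.23). *Pdpr*, which regulates the phosphatase, gave 0.30, and *Lipt1*, a lipoyl transferase, 0.31, with overlapping groups. *Pdp2* was not among the genes kept.

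Genes of pyruvate and acetyl-CoA handling (glycolysis end, lactate, alanine, malate and citrate steps, and carriers) included larger values. Of 18 measured, 9 were higher and 0 lower at an unadjusted p under 0.05, with a median log2 fold change of 0.51, beside 9.66% higher among all genes. *Mpc1*, a subunit of the carrier that takes pyruvate into mitochondria, read 102, 107 and 84.7 in hNAG-1 WAT, against 43, 34.1 and 45 in WT WAT. The log2 fold change was 1.27 (SE 0.16). *Acly*, which splits exported citrate into acetyl-CoA, read 69.3, 73.1 and 56.1 in hNAG-1 WAT, against 16.5, 13.8 and 20.5 in WT WAT. Its log2 fold change was 1.98 (SE 0.19), and 1.37 (SE 0.42) on its dimmer probe. *Slc25a1*, the citrate carrier, gave 1.51 and *Me1*, the cytosolic malic enzyme that makes NADPH, gave 1.49. The adjusted p of each of these 4 was 0.167 by limma. For all 4 the hNAG-1 arrays lay above the WT arrays, but they were picked for the largest absolute moderated t, which favours separate groups. Over the whole list this was so for 10 of 18 genes, beside 15.0% of all genes. The monocarboxylate transporters, named after their values were seen, which carry pyruvate and lactate across membranes, overlapped between genotypes, at 0.03 for *Slc16a1*, 0.03 for *Slc16a7* and -0.30 for *Slc16a3*. The range of the list reached down to -0.40.

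The related dehydrogenases that use the same chemistry had smaller fold changes, with a median of 0.16. Of 8 measured of 9 listed, 3 were higher and 0 lower at an unadjusted p under 0.05, beside 9.66% higher and 3.64% lower among all genes, and on 4 of the 8 every hNAG-1 array lay above every WT array, beside 15.0%. The 3 higher genes were *Bckdk* (0.48), *Bckdha* (0.51) and *Dlst* (0.34). *Bckdk* and *Bckdha* encode the kinase and E1 alpha chain of the branched-chain ketoacid dehydrogenase, and *Dlst* the E2 of oxoglutarate dehydrogenase. The other gene with separate arrays was *Bckdhb*, the E1 beta chain of the branched-chain enzyme, at 0.24 (SE 0.12). Dimmer probes gave 0.44 for *Bckdha*, 0.37 and 0.05 for *Dlst* and 0.14 for *Bckdhb*.

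Known regulators of the kinase genes were mixed: of 13 measured, 2 were higher and 2 lower at an unadjusted p under 0.05, beside 9.66% and 3.64% of all genes, with a median of 0.23. *Ppargc1a*, a coactivator of mitochondrial genes, read 0.756, 0.826 and 0.723 in hNAG-1 WAT, against 0.505, 0.561 and 0.398 in WT WAT, a log2 fold change of 0.67. *Esrra*, the nuclear receptor it works with, gave 0.61. The dimmer probes gave 0.78 for *Ppargc1a* and 0.30 (SE 0.18) for *Esrra*. *Foxo1*, an activator of *Pdk4* in fasting, read 9.19, 7.62 and 8.86 in hNAG-1 WAT, against 12.2, 10.2 and 10.5 in WT WAT. Its log2 fold change was -0.36, and -0.24 (SE 0.18) on its dimmer probe, and *Hif1a* gave -0.31. These 4 were picked for the largest absolute moderated t and had separate groups. Over the 13, every hNAG-1 array lay above every WT array for 2, beside 15.0% of all genes, and below for 2, beside 5.94%.

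The targets that *Pdk4* and *Pdk1* are usually listed with had values in both directions. Of 17 genes induced by PPAR or fasting, 1 was higher and 1 lower at an unadjusted p under 0.05, with a median of 0.15, the shares among all genes being 9.66% and 3.64%. The lipid droplet gene *Plin2* gave 1.01 and *Cpt1a*, which admits fatty acids to mitochondria, gave -0.42. *Ucp3*, a mitochondrial carrier, gave 0.52 (SE 0.23) and *Acadl*, of fatty acid oxidation, 0.36 (SE 0.18). Of 12 HIF targets, 3 were higher and 2 lower, against the same shares, with a median of 0.18. The glycolytic gene *Pgk1* (0.56) and the oxygen sensor *Egln3* (1.04) were on the higher side, and *Ndrg1* (-0.58) and *Adm* (-0.62) on the lower side. None of these genes passed an adjusted p of 0.05. Their relation to the *Pdk4* and *Pdk1* values was not tested.

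**Figure D4:**
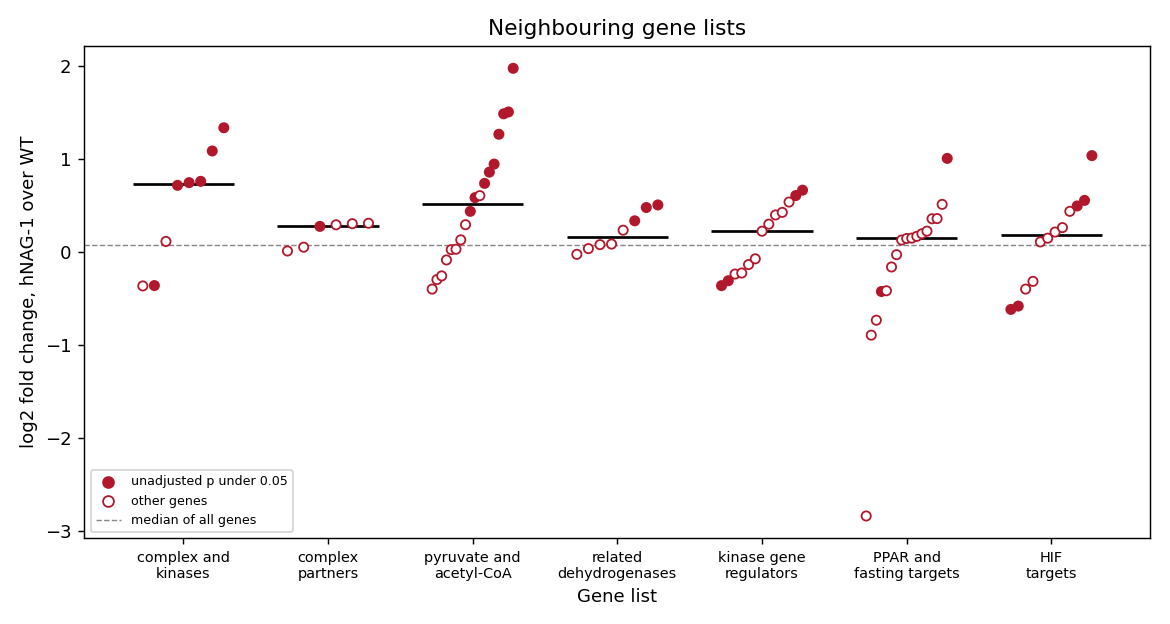
Each point is 1 gene's log2 fold change (hNAG-1 over WT, vertical axis) in the list named on the horizontal axis, filled where the unadjusted p is under 0.05; black bars are list medians and the dashed line is the median of all genes, 0.08. The list of the complex and its kinases has its median at 0.74 and that of pyruvate and acetyl-CoA genes at 0.51, while the other lists have theirs between 0.15 and 0.29.

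The same 5 genes were higher at an unadjusted p under 0.05 with any of the 6 arrays left out. In these fits 5.07% to 12.2% of all genes were higher. Within the slide that holds both genotypes, hNAG-1 replicate 1 was set against the 3 WT arrays. The log2 fold changes were 0.92 for *Pdha1*, 1.23 for *Pdhb*, 0.93 for *Dlat*, 1.06 for *Pdhx* and 1.45 for *Pdk1*. These were larger than over all arrays because hNAG-1 replicate 1 was the highest hNAG-1 array for all 5 genes. All 5 were higher at an unadjusted p under 0.05 there, as were 2.92% of all genes. The lone array was assumed to vary like the WT arrays. The 10 adipocyte markers were all positive, with a median log2 fold change of 0.30, where 61.4% of all genes were positive. Under quantile normalization *Cfd* (-0.02), *Cidec* (-0.04), *Adipoq* (-0.15) and *Lipe* (-0.07) turned negative, and the other adipocyte markers stayed positive. When each array was scaled to the mean of the 10 adipocyte markers instead, a setting chosen after seeing the data, the median of all genes moved to -0.26. *Pdk1* was then at 1.00 (SE 0.26) and *Pdhb* at 0.76 (SE 0.19), and these 2 stayed past an unadjusted p of 0.05, where 1.39% of all genes were higher. *Pdha1* at 0.38 (SE 0.20), *Dlat* at 0.41 (SE 0.19) and *Pdhx* at 0.43 (SE 0.22) were no longer past it. *Pdk3* was at -0.70 and *Pdk4* at -0.70 under this scaling. With variances that follow signal intensity (limma trend and robust), *Pdk1*, *Pdhb* and *Pdha1* had adjusted p of 0.0313, 0.0429 and 0.0481, in a fit that called 0.655% of genes higher and 0.114% lower.

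**Figure D5:**
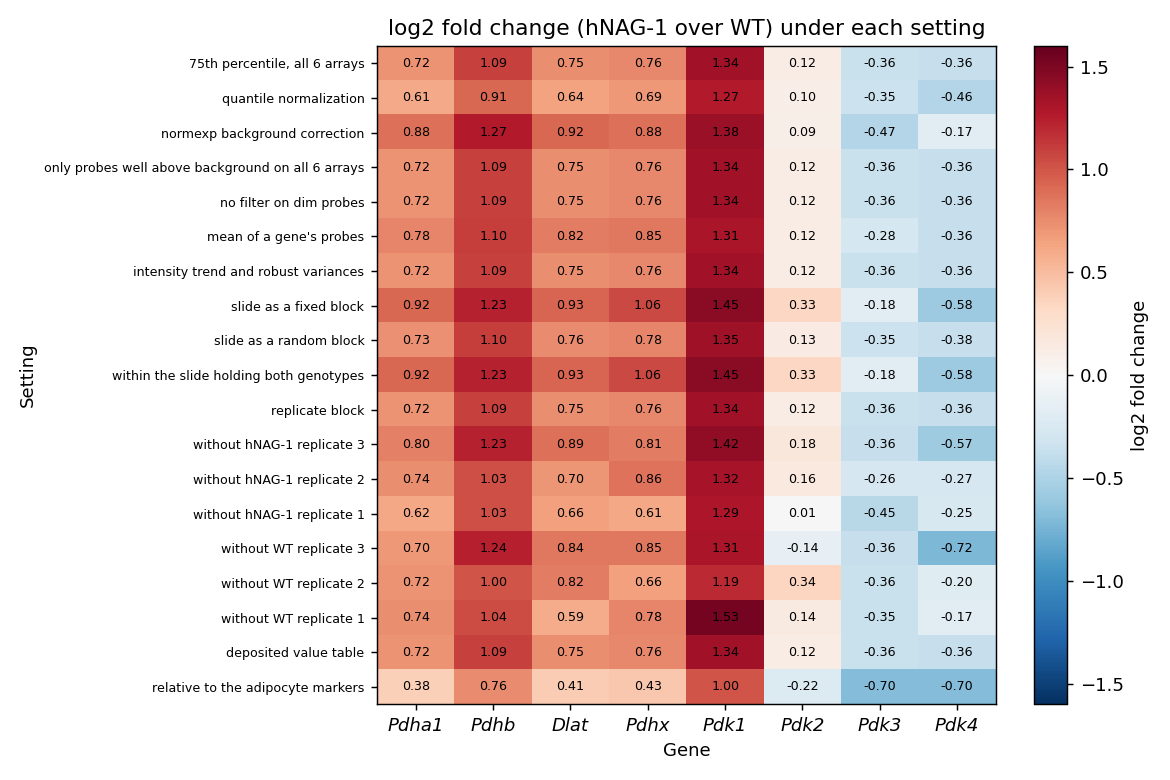
Rows are the settings of the analysis, columns the 8 genes, and each cell gives the log2 fold change (hNAG-1 over WT), red above 0 and blue below. The complex genes and Pdk1 are red in every row, Pdk3 and Pdk4 blue in every row, and Pdk2 changes sign without WT replicate 3 and under the scaling to adipocyte markers.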

How the data were processed

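Gene expression in abdominal WAT was measured on single-colour Agilent mouse arrays, 3 for hNAG-1 and 3 for WT, each with RNA pooled from 2 mice. The study's methods name an Affymetrix array, whereas the files are Agilent scanner output. The authors deposited spot intensity from Agilent Feature Extraction 9.5 (version from the submitters' processing notes), which had been background-subtracted on each array, and a table of the same intensity: all 45018 of its rows equal the scanner values. Since each array holds different mice, the tests rest on differences among pools, and the number of arrays limits the precision.

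Control spots (1639) and spots flagged as outliers were not used here. The log2 of the processed signal minus the array's 75th percentile was taken. A probe was kept where at least 3 of the 6 arrays had it well above background; 37 were dropped for a missing value. Among 41174 probes, RefSeq (GRCm38.p6) gave a name by accession to 22951, by current symbol to 6659 and by an older symbol to 3109, and the other 8455 have the name of the array design. Probe positions are those of the array design (mm7); exon and UTR positions were not annotated here. A gene was represented by its brightest kept probe. Genotypes were compared with limma 3.58.1 in R 4.3.3 (two-sided, Benjamini-Hochberg over all genes), with the calculation checked on simulated data. An unadjusted p under 0.05 and the overlap of arrays serve as descriptions, beside their share among all genes.

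The members and lists were chosen with earlier results of these data known. All members are named, with up to 4 genes of each other list (largest absolute moderated t) and the 5 genes most like Pdhb and Pdk4, 1 of which is not reported here. Alternatives included the deposited table, another variance model, other filters, the mean of a gene's probes, normexp background correction (offset 50), quantile normalization, leaving out each array, and blocks for slide or replicate number; a scaling to adipocyte markers was added after seeing the data.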

Additional observations from a re-analysis of the deposited data

How the results depend on the processing

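The directions of Pdha1, Pdhb, Dlat, Pdhx, Pdk1, Pdk3 and Pdk4 were kept in all 18 alternatives, but not all of these could turn a direction. The deposited table, the other filters, the trend and robust variances and the replicate block left each member's log2 fold change as it was. The slide as a fixed block and the fit within the slide gave the same values as each other. Pdhb and Pdk1 kept an unadjusted p under 0.05 in all 18, and Pdha1, Dlat and Pdhx in 17, the exception being the scaling to adipocyte markers, which left 2 members higher. Pdk2 lay between -0.14 (without WT replicate 3) and 0.34 with 1 array left out, and was -0.22 relative to the adipocyte markers.

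With intensity trend and robust variances, 162 genes passed an adjusted p of 0.05 (138 higher, 24 lower), as did 267 probes and 3 members; with the slide as a fixed block 2 probes passed. Genes higher at an unadjusted p under 0.05 were 351 with normexp, 908 with the slide as a fixed block, 615 within the slide holding both genotypes and 293 relative to the adipocyte markers; genes lower were 117 with normexp and 3406 relative to the adipocyte markers. With 1 array left out, 1068 to 2559 genes were higher and 498 to 1174 lower. The count of members lower (Pdk3) was 0 under quantile normalization, normexp, the slide as a fixed block, within the slide and with the replicate block, and 0 to 1 with an array left out, the 1 being Pdk3 without hNAG-1 replicate 1 and Pdk4 without WT replicate 3. Normexp moved the median log2 fold change of all genes to -0.19. The cause was not tested.

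With the replicate number as a block, 1649 genes and 5 members were higher. Same-numbered arrays deviated together at r = 0.0977, 0.512 and 0.0949, not all above 0.1, and were not taken as pairs; hNAG-1 replicate 1 shares its slide with all 3 WT arrays.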
